A study of Arabidopsis thaliana with 48 samples.

Results

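The 3′ ends of 18S rRNA were compared between hot3-2 dcl2 dcl4 and hot3-2 seedlings in the nonpolysome fraction, which holds the top gradient fractions that are lighter than the 80S monosome. The comparison used 8 of the 48 libraries of the series, chosen by their labels: 4 of hot3-2 dcl2 dcl4 and 4 of hot3-2. All plants were 18-day-old Arabidopsis seedlings of the Col-0 ecotype. Both groups carry the hot3-2 T-DNA allele of HOT3, and the first also carries T-DNA alleles of DCL2 and DCL4 (dcl2-1 and dcl4-2), so HOT3 function is impaired on both sides and only the 2 DCL genes differ by design. The other 40 libraries, of dcl2 dcl4, wild type (WT) and the other fractions, were used only where they show how the comparison differs elsewhere. The assay, 18S-ENDseq, reads the ends of circularised rRNA and measures no other gene, so neither the loss of HOT3, DCL2 and DCL4 nor the identity of the tissue could be checked in these files.

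HOT3 is an eIF5B homologue, a translation initiation factor of the family that also joins the last steps of small-subunit maturation. In those steps the endonuclease NOB1 cuts the pre-18S rRNA at the D site, which becomes the mature 3′ end, and releases the remaining piece of internal transcribed spacer 1 (ITS1). Before that cut, an endonuclease cleaves within ITS1 at A2, which lies downstream of D. The exosome is then proposed to trim the end back, with short untemplated tails, mostly adenosine, added on the way. DCL2 and DCL4 are Dicer-like RNases that cut double-stranded RNA into small interfering RNAs, which can silence matching transcripts. In hot3 mutants the study found siRNAs made from rRNA that depended on DCL2 and DCL4. The comparison asks whether these siRNA-producing enzymes alter the ends of the 18S precursors that a HOT3 mutant contains.

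Every end was placed relative to D, the last base of 18S, with positive numbers in ITS1 and negative numbers for ends shortened into 18S. The stretch around D is shown because all positions below refer to it; it is identical in both annotated 18S genes of the TAIR10.1 assembly, AT2G01010 (chr2:5508-5537) and AT3G41768 (chr3:14199479-14199508), on the plus strand. Its first 6 bases are the 3′ end of the annotated 18S rRNA exon and the next 24 are ITS1. The capitals mark the A1 cluster of ends (+8 to +13) and the A2 cluster (+21 and +22).
18S 3′ end and ITS1: tcattgtcgatacCTGTCCaaaacagAAcg
The files count a tail base that matches the next template base as template. An adenosine added to an end at +20 or +21 is therefore counted as an end at +21 or +22, and adenosines added at +13 to +16 are likewise moved along the A run that ends at +17. The files held 330 rows per library, 30 positions by an untailed class and 10 tail lengths. Each row was expressed as the percent of untailed reads at D in the same library, here percent of D, so that more of an end cannot be told apart from less mature 18S rRNA.

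The 8 libraries held 1861418 to 3847555 counted reads, of which 1342007 to 3072800 were untailed at D, and the study describes them as biological replicates. Within a genotype, replicates 1 and 3 resembled each other in untailed ends and so did replicates 2 and 4. The root mean square log2 difference over the 29 untailed rows was 0.18 between replicates 1 and 3 and 0.20 between 2 and 4 in hot3-2 dcl2 dcl4, and 0.17 and 0.26 for the same pairs in hot3-2, against 0.35 to 0.81 for the other pairs. The 240 tailed rows did not pair in this way. Over them the same measure was 0.75 between replicates 1 and 3 and 0.90 between 2 and 4 in hot3-2 dcl2 dcl4. In hot3-2 it was 0.71 and 0.96, and the other pairs of both genotypes had 0.50 to 1.38. The labels do not say what replicates 1 and 3 share. The tests of single rows and the class and summary measures of the nonpolysome comparison were therefore also taken within replicates 1 and 3 and within replicates 2 and 4.

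No row passed the test across all rows. Of 329 rows other than untailed D, 269 had at least 10 reads in at least 4 libraries, and edgeR's quasi-likelihood test with Benjamini-Hochberg adjustment called 0 of them (0%), with 16 at an unadjusted p under 0.05 (5.95%). The smallest adjusted p was 0.0752. In 10 rows all 4 hot3-2 dcl2 dcl4 libraries lay above all 4 hot3-2 libraries (3.72%) and in 7 rows all lay below (2.6%). Libraries of the same replicate number deviated together over these 269 rows (r = 0.34, 0.70, 0.54 and 0.53 for numbers 1 to 4). Pairs of different numbers had r from -0.67 to 0.41, so the pairing by number is not clear-cut. On the same-number values, the replicate number was also used as a block. That fit called 27 rows (10%), 16 higher and 11 lower in hot3-2 dcl2 dcl4, at adjusted p-values of 0.0349 to 0.0430. Without any 1 of the 4 replicate numbers the blocked edgeR fit called 0 rows, with 44 to 63 at an unadjusted p under 0.05. Of the 27, the 25 or 26 that could still be tested kept their direction each time. Those rows were selected in the same libraries, so the kept direction is not independent support for them. DESeq2 called 7 rows without a block.

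**Figure D1:**
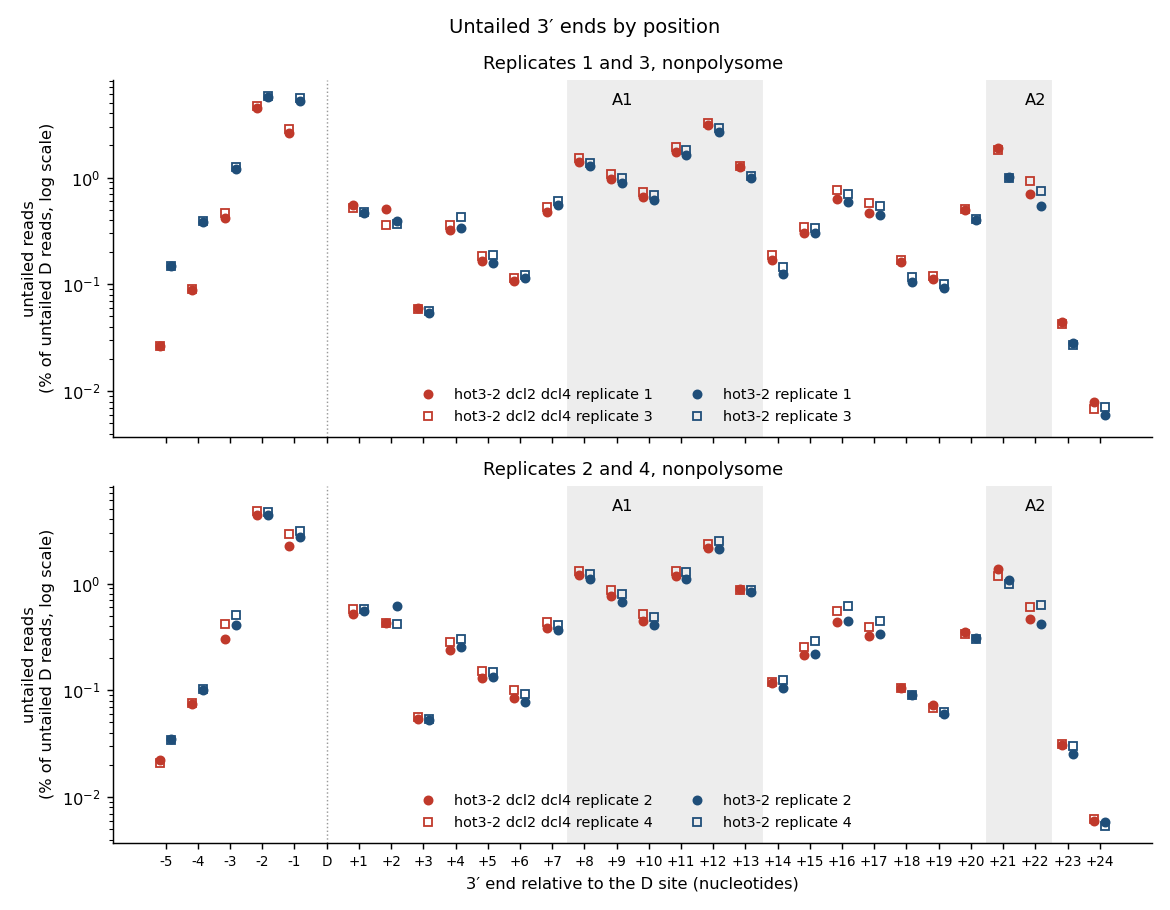
Untailed reads at each 3′ end position, as percent of untailed D reads on a log scale, with replicates 1 and 3 above and 2 and 4 below. hot3-2 dcl2 dcl4 is red and hot3-2 blue, and A1 and A2 are shaded. The genotypes part at +21 and at the ends shortened by 3 to 5 bases, most in replicates 1 and 3.

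The untailed ITS1 end with the largest difference was +21, the upstream base of the A2 cluster. Untailed +21 ends were 1.87, 1.37, 1.82 and 1.18% of D in hot3-2 dcl2 dcl4 replicates 1 to 4, against 1.01, 1.07, 0.985 and 0.980% of D in hot3-2. All 4 hot3-2 dcl2 dcl4 libraries lay above the hot3-2 libraries, replicates 1 and 3 by more. The mean was 1.56 ± 0.339% of D in hot3-2 dcl2 dcl4 and 1.01 ± 0.0419% of D in hot3-2 (SD, n = 4 each), a log2 difference of 0.62 ± 0.19 (SE; edgeR adjusted p = 0.217; 0.00943 to 1.00 over 21 alternatives). With the replicate block it was 0.60 (adjusted p = 0.0421). Replicates 1 and 3 alone gave 0.89, and replicates 2 and 4 gave 0.31. Counting error was small beside this spread: 14955 to 41829 reads lay behind each value, and the 95% Wilson interval of a library's share spanned 0.953 to 1.60% of the value on either side.

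The other A2 base behaved less uniformly. Untailed +22 ends were 0.696, 0.464, 0.935 and 0.602% of D in hot3-2 dcl2 dcl4, against 0.544, 0.421, 0.751 and 0.628% of D in hot3-2, and the groups overlapped (log2 difference 0.20 ± 0.25, adjusted p = 0.999). A2 as a class, +21 and +22 together and untailed, was 2.57, 1.83, 2.75 and 1.78% of D in hot3-2 dcl2 dcl4, against 1.55, 1.49, 1.74 and 1.61% of D in hot3-2. The groups did not overlap. The class means were 2.23 ± 0.499 and 1.60 ± 0.104% of D, and the exact permutation p was 0.0286, the smallest that 4 against 4 allows, or 0.214 after adjustment over the 15 end classes.

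Ends next to A2 differed in the same direction by less. Just upstream, +18, +19 and +20 had log2 differences of 0.42, 0.25 and 0.26 (adjusted p = 0.999 each) and 0.39, 0.24 and 0.25 with the block (adjusted p = 0.0421 each). Each was higher in hot3-2 dcl2 dcl4 for all 4 replicate numbers, although the groups overlapped. Just downstream, +23 was 0.0445, 0.0310, 0.0422 and 0.0316% of D in hot3-2 dcl2 dcl4, against 0.0281, 0.0253, 0.0268 and 0.0299% of D in hot3-2. These groups did not overlap (log2 difference 0.44, adjusted p = 0.999; 0.42 with the block, adjusted p = 0.0601).

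The ratio of A1 to A2 set the 2 clusters against each other without using D. It was 3.55, 3.63, 3.56 and 4.05 in hot3-2 dcl2 dcl4, against 5.23, 4.18, 5.09 and 4.44 in hot3-2. Every hot3-2 dcl2 dcl4 library lay below every hot3-2 library, with replicate 4 of hot3-2 dcl2 dcl4 and replicate 2 of hot3-2 closest. The means were 3.69 ± 0.238 and 4.73 ± 0.505 (SD, n = 4 each; exact permutation p = 0.0286, 0.171 after adjustment over 6 summary measures). Within replicates 1 and 3 the log2 difference was -0.54, against -0.17 within the other pair.

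**Figure D2:**
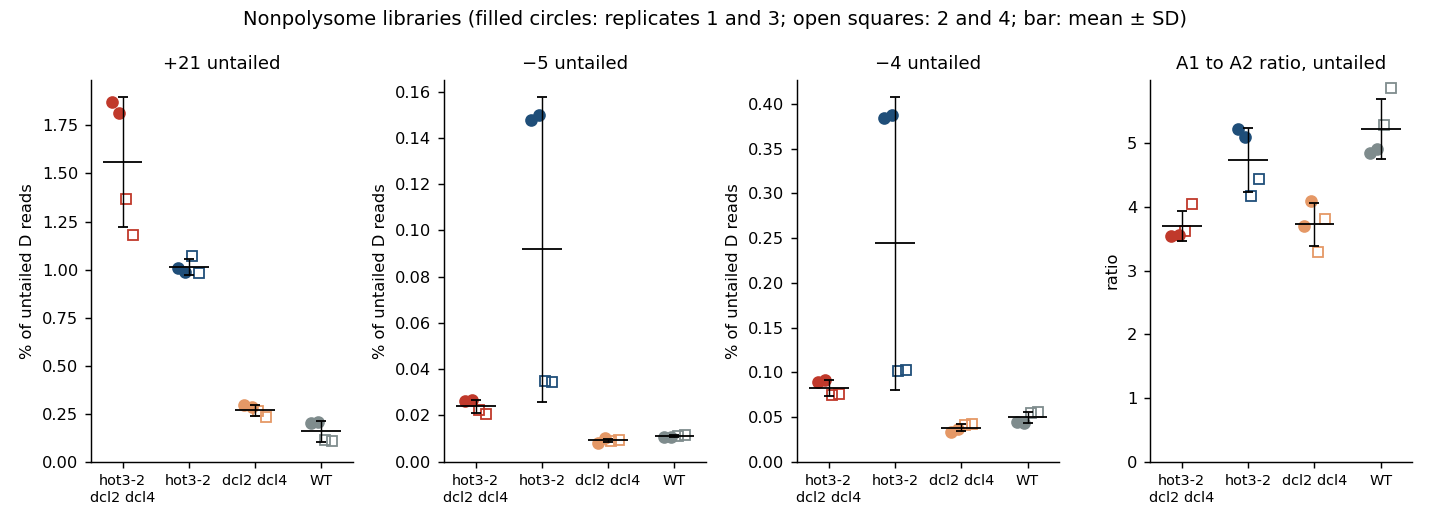
Untailed +21, -5 and -4 ends as percent of untailed D reads, and the untailed A1 to A2 ratio, in the 4 nonpolysome libraries of each genotype. Bars are mean ± SD. The +21 end is higher in hot3-2 dcl2 dcl4 than in hot3-2 without overlap, and replicates 1 and 3 of hot3-2 stand apart at -5 and -4.

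A1, the cluster where most untailed extended ends lay, differed by less than the spread between libraries. Untailed A1 ends were 9.10, 6.64, 9.79 and 7.21% of D in hot3-2 dcl2 dcl4, against 8.11, 6.23, 8.84 and 7.14% of D in hot3-2. In both genotypes replicates 1 and 3 were the high pair, and within each number hot3-2 dcl2 dcl4 was slightly higher. The means were 8.19 ± 1.50 and 7.58 ± 1.13% of D (log2 difference 0.11, exact permutation p = 0.514, 0.964 after adjustment). Position +12, the most frequent A1 end, averaged 2.71 ± 0.537% of D in hot3-2 dcl2 dcl4 and 2.55 ± 0.350% of D in hot3-2 (log2 difference 0.08, 95% interval -0.33 to 0.50). The 6 A1 positions had log2 differences of 0.08 to 0.21, and none was called with or without the block.

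The stretches before and between the clusters differed by less than the spread between libraries. Ends at +1 and +2, the first bases past D, were 0.972 ± 0.0774% of D in hot3-2 dcl2 dcl4 and 0.966 ± 0.147% of D in hot3-2. Ends at +3 to +7 were 1.08 ± 0.156 and 1.12 ± 0.225% of D, and ends at +14 to +20 were 2.11 ± 0.477 and 1.98 ± 0.324% of D, in the same order of genotypes. The exact permutation p for these 3 classes was 0.971, 0.771 and 0.686. All untailed ends from +1 to +22 together were 16.2, 11.9, 17.4 and 12.8% of D in hot3-2 dcl2 dcl4, against 13.8, 11.3, 15.2 and 12.7% of D in hot3-2. The groups overlapped, with means of 14.6 ± 2.61 and 13.2 ± 1.62% of D (log2 difference 0.14, exact permutation p = 0.371).

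Ends shortened into 18S were the other place where the genotypes parted, and here 2 hot3-2 libraries decided the size. Untailed -5 ends were 0.0262, 0.0222, 0.0266 and 0.0208% of D in hot3-2 dcl2 dcl4, against 0.148, 0.0351, 0.150 and 0.0345% of D in hot3-2. Replicates 1 and 3 of hot3-2 were 4.28-fold above its replicates 2 and 4, whereas in hot3-2 dcl2 dcl4 the same pairs differed by 1.23-fold. All hot3-2 dcl2 dcl4 libraries lay below all hot3-2 libraries. The log2 difference was -1.94 ± 0.49 (SE; edgeR adjusted p = 0.132; 0.00261 to 1.00 over 21 alternatives) and -1.60 with the block (adjusted p = 0.0421). Replicates 1 and 3 alone gave -2.50, and replicates 2 and 4 gave -0.69.

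Untailed -4 ends had the same pattern. They were 0.0892, 0.0746, 0.0912 and 0.0754% of D in hot3-2 dcl2 dcl4, against 0.385, 0.102, 0.388 and 0.102% of D in hot3-2, again without overlap. The log2 difference was -1.56 ± 0.45 (adjusted p = 0.197; 0.0601 with the block), with -2.10 in replicates 1 and 3 and -0.44 in replicates 2 and 4. Toward D the difference was smaller. At -3 the means were 0.400 ± 0.0700% of D in hot3-2 dcl2 dcl4 and 0.845 ± 0.446% of D in hot3-2 (log2 difference -1.08, adjusted p = 0.259; -0.93 with the block, adjusted p = 0.0429), and 1 hot3-2 library lay within the hot3-2 dcl2 dcl4 range. At -2, the most frequent shortened end, they were 4.56 ± 0.213 and 5.14 ± 0.709% of D (log2 difference -0.17, adjusted p = 0.999), and at -1 they were 2.65 ± 0.297 and 4.14 ± 1.43% of D (log2 difference -0.64, adjusted p = 0.408). In replicates 1 and 3 alone, edgeR called -5, -4, -3 and -1 lower and +21 higher, 5 of 245 rows. In replicates 2 and 4 alone it called 0 of 248, with 4 at an unadjusted p under 0.05. In both sets 2 libraries a side leave few degrees of freedom. The sets were taken because their untailed ends were alike, so these fits measure only the spread within a set. All untailed shortened ends together were 7.59, 6.98, 8.09 and 8.22% of D in hot3-2 dcl2 dcl4, against 12.6, 7.63, 13.1 and 8.47% of D in hot3-2, lower in hot3-2 dcl2 dcl4 for all 4 numbers (exact permutation p = 0.114).

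**Figure D3:**
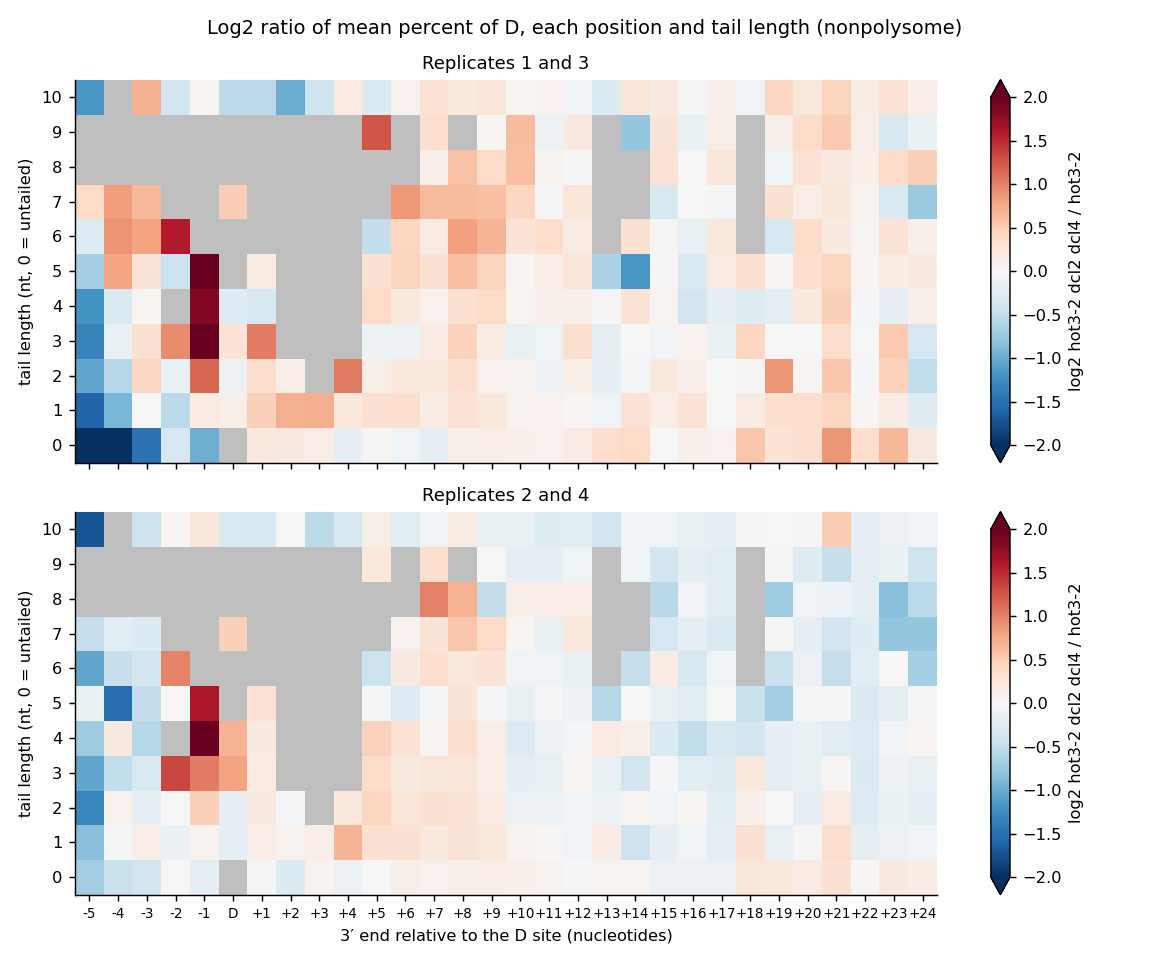
Log2 ratio of the mean percent of D in hot3-2 dcl2 dcl4 over that in hot3-2 for each position (columns) and tail length (rows), in replicates 1 and 3 above and 2 and 4 below. Grey cells are untailed D, the denominator, and rows under the count minimum. Untailed -5 ends and those with 1 to 4 nt are lower in both sets, and ends at -1 with 2 to 5 nt are higher in both. Most ITS1 cells are faintly red in replicates 1 and 3 and faintly blue from +10 on in replicates 2 and 4.

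Tailed reads on shortened ends were a small percent of D, although tails were not rare among the reads at -5 itself. The direction of their differences was not the same at -5 and -1. At -5, tails of 1, 2 and 10 nt were lower in hot3-2 dcl2 dcl4 without overlap, with log2 differences of -1.31, -1.14 and -1.42 (adjusted p = 0.223, 0.184 and 0.107; 0.0421, 0.0349 and 0.0349 with the block). The most frequent tail at -5, of 7 nt, was not lower, with 0.00603% of D in hot3-2 dcl2 dcl4 and 0.00538% of D in hot3-2 on average and overlap (log2 difference 0.16), and tails of 5 and 6 nt overlapped too. At -1, tails of 2 to 5 nt had the opposite direction to those called at -5 with the block. Reads at -1 with a 3-nt tail were 0.00432, 0.00193, 0.00276 and 0.00223% of D in hot3-2 dcl2 dcl4, against 0.000682, 0.000944, 0.000922 and 0.00110% of D in hot3-2. The groups did not overlap, yet these values rest on 37 to 92 reads per hot3-2 dcl2 dcl4 library and 12 to 29 per hot3-2 library. The log2 difference was 1.60 ± 0.33 (adjusted p = 0.0752; 0.0391 with the block). Tails of 4 and 5 nt at -1 had log2 differences of 1.95 and 2.09 (adjusted p = 0.132 and 0.0752; 0.0421 and 0.0349 with the block), on 2 to 53 reads per library. A 3-nt tail at -2 had a log2 difference of 1.14 (adjusted p = 0.223; 0.0421 with the block) on 7 to 26 reads. The 2-nt tail at -1 was more frequent, with 0.00685, 0.00481, 0.00626 and 0.00381% of D in hot3-2 dcl2 dcl4, against 0.00296, 0.00335, 0.00296 and 0.00285% of D in hot3-2 (log2 difference 0.84, adjusted p = 0.230; 0.0421 with the block). All of these rows were higher in every hot3-2 dcl2 dcl4 library than in any hot3-2 library.

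At -1 and -2 most tailed reads had a tail as long as the missing stretch, so that the read was as long as one ending at D. Of tailed reads at -1, a single added base made up 95.1 ± 1.30% in hot3-2 dcl2 dcl4 and 97.2 ± 0.684% in hot3-2, and of those at -2 a 2-nt tail made up 89.9 ± 0.965 and 89.0 ± 2.54%. At -3 a 3-nt tail made up only 9.57 ± 1.03 and 9.57 ± 0.278%. Over -5 to -1 tails of matching length were 76.4 ± 7.02% of tailed reads in hot3-2 dcl2 dcl4 and 76.1 ± 4.99% in hot3-2. The rows with 2 to 5 nt at -1 and 3 nt at -2 lie outside this bulk and are longer than a read ending at D. The tailed shortened class as a whole was 0.593 ± 0.0433 and 0.574 ± 0.0353% of D (exact permutation p = 0.514).

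The amount and mean length of tails on the extended ends, taken over all positions, differed by less than the spread between libraries. Tailed reads from +1 to +22 were 8.08, 5.40, 12.4 and 8.46% of D in hot3-2 dcl2 dcl4, against 7.95, 5.53, 11.8 and 9.67% of D in hot3-2. Replicate 2 was the lowest and replicate 3 the highest in both genotypes, a spread between numbers far wider than that between genotypes. The means were 8.58 ± 2.87 and 8.74 ± 2.65% of D (log2 difference -0.03, exact permutation p = 0.943). The tailed share of all reads from +1 to +22 was 33.3, 31.1, 41.6 and 39.7% in hot3-2 dcl2 dcl4, against 36.6, 32.8, 43.8 and 43.3% in hot3-2. It was lower in hot3-2 dcl2 dcl4 for all 4 numbers, but the means of 36.4 ± 5.02 and 39.1 ± 5.33% overlapped (exact permutation p = 0.486). With the numbers paired, the exact sign-flip test could not go below 0.125. The mean tail length was 3.46 ± 0.273 nt in hot3-2 dcl2 dcl4 and 3.48 ± 0.262 nt in hot3-2 (exact permutation p = 0.857).

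**Figure D4:**
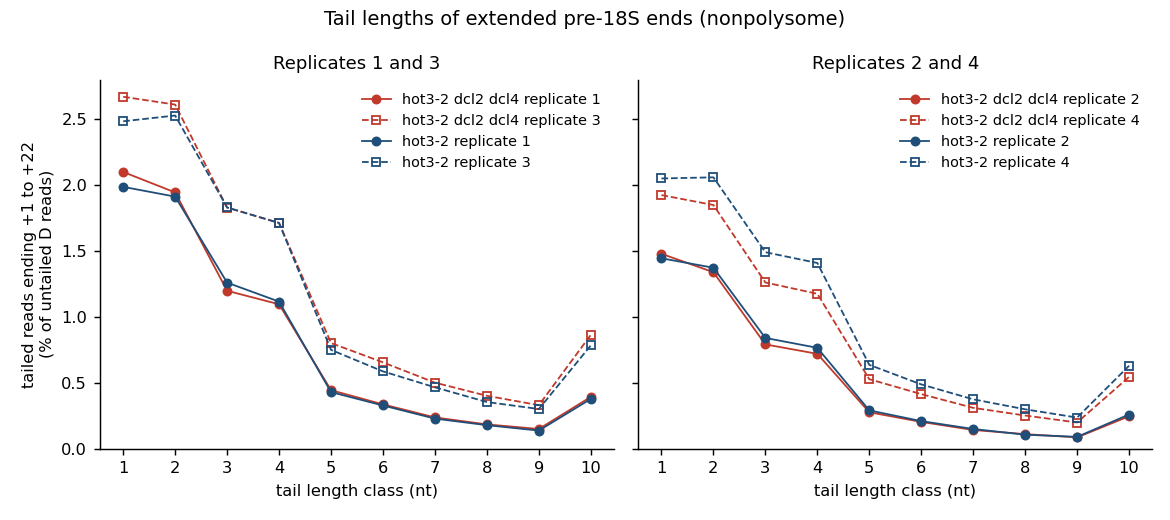
Tailed reads ending from +1 to +22 as percent of untailed D reads, by tail length class from 1 to 10 nt, for each library. The curves pair by replicate number: hot3-2 dcl2 dcl4 and hot3-2 replicate 1 nearly coincide, as do both replicates 2.

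No tail length class stood apart. Single-base tails made up 2.04 ± 0.492% of D in hot3-2 dcl2 dcl4 and 1.99 ± 0.426% of D in hot3-2, 3-nt tails 1.27 ± 0.427 and 1.35 ± 0.415% of D, and the 10-nt class 0.512 ± 0.264 and 0.513 ± 0.237% of D. The log2 differences of the 10 lengths lay between -0.09 and 0.04, and the exact permutation p was at least 0.686. Tails of 3 nt were lower in hot3-2 dcl2 dcl4 for all 4 replicate numbers, with 1.20, 0.791, 1.83 and 1.26% of D, against 1.26, 0.840, 1.83 and 1.49% of D in hot3-2, and the groups overlapped. Within replicates 2 and 4 all 10 were below 0, the lowest at -0.21, and within replicates 1 and 3 they lay between -0.03 and 0.14.

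Tailed A2 ends differed by less than the spread between libraries. They were 2.69, 1.59, 5.39 and 3.37% of D in hot3-2 dcl2 dcl4, against 2.71, 1.69, 5.10 and 4.11% of D in hot3-2, closest in replicate 1 and furthest apart in replicate 4 (means 3.26 ± 1.60 and 3.40 ± 1.50% of D, exact permutation p = 0.914). The most frequent tailed A2 row, +22 with 1 nt, was 0.458, 0.275, 0.715 and 0.466% of D in hot3-2 dcl2 dcl4, against 0.441, 0.285, 0.696 and 0.554% of D in hot3-2. Tailed A1 ends were 3.17, 2.29, 3.79 and 2.81% of D in hot3-2 dcl2 dcl4, against 3.02, 2.28, 3.57 and 2.95% of D in hot3-2 (exact permutation p = 0.771). Among single rows the block called tails of 1 to 4 nt at +8, the upstream edge of A1, with log2 differences of 0.27, 0.30, 0.34 and 0.32 (adjusted p = 0.0391, 0.0391, 0.0426 and 0.0429). Single-base tails at +8 were 0.139, 0.126, 0.155 and 0.135% of D in hot3-2 dcl2 dcl4, against 0.115, 0.101, 0.127 and 0.117% of D in hot3-2. They were higher for each number, with overlap across numbers.

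The remaining rows called with the block were small differences of one direction at every replicate number. Higher in hot3-2 dcl2 dcl4 were +7 with 2 nt, +9 with 1 nt and +21 with 1 nt, by 0.25, 0.21 and 0.37 on the log2 scale with the block (adjusted p = 0.0421 each). Single-base tails at +21 were 0.0179, 0.0120, 0.0259 and 0.0185% of D in hot3-2 dcl2 dcl4, against 0.0140, 0.0107, 0.0184 and 0.0132% of D in hot3-2. Lower were 4-nt tails at +16 and +17, by -0.43 and -0.23 (adjusted p = 0.0391 and 0.0429). The 10-nt class was lower on ends at D and at +1, the bases on either side of the NOB1 cut. At D it was 0.0128, 0.0154, 0.0172 and 0.0203% of D in hot3-2 dcl2 dcl4, against 0.0189, 0.0180, 0.0242 and 0.0262% of D in hot3-2, with overlap (-0.40 with the block, adjusted p = 0.0391). At +1 it was 0.00652, 0.00716, 0.00641 and 0.00788% of D in hot3-2 dcl2 dcl4, against 0.00892, 0.00804, 0.00969 and 0.0107% of D in hot3-2, without overlap (-0.40, adjusted p = 0.0430). Without the block all 7 had an adjusted p of 0.999. The other rows called with the block were tails of 3 and 4 nt at -5, both lower.

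Besides untailed -4 and +23, 3 further rows had no overlap between the groups and were not called with the block. Single-base tails at +1 were 0.0107, 0.00912, 0.00946 and 0.00928% of D in hot3-2 dcl2 dcl4, against 0.00745, 0.00843, 0.00705 and 0.00827% of D in hot3-2. Single-base tails at +2 and 2-nt tails at +4 were likewise higher, at values of at most 0.00347 and 0.00127% of D.

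Over the whole map, kinds of end leaned in different directions. All 5 untailed shortened rows had a negative log2 difference, with a median of -1.08, and 19 of 24 untailed ITS1 rows had a positive one, with a median of 0.10, against 161 of 269 positive and a median of 0.05 over all rows tested. Tailed A1 rows were positive in 40 of 55 and tailed rows from +14 to +20 in 28 of 64. The lean of the tailed ITS1 rows depended on the replicates: replicates 1 and 3 gave a median of 0.14, the other pair one of -0.07. Of 238 rows that could be tested in both sets, 133 had the same sign in both.

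**Figure D5:**
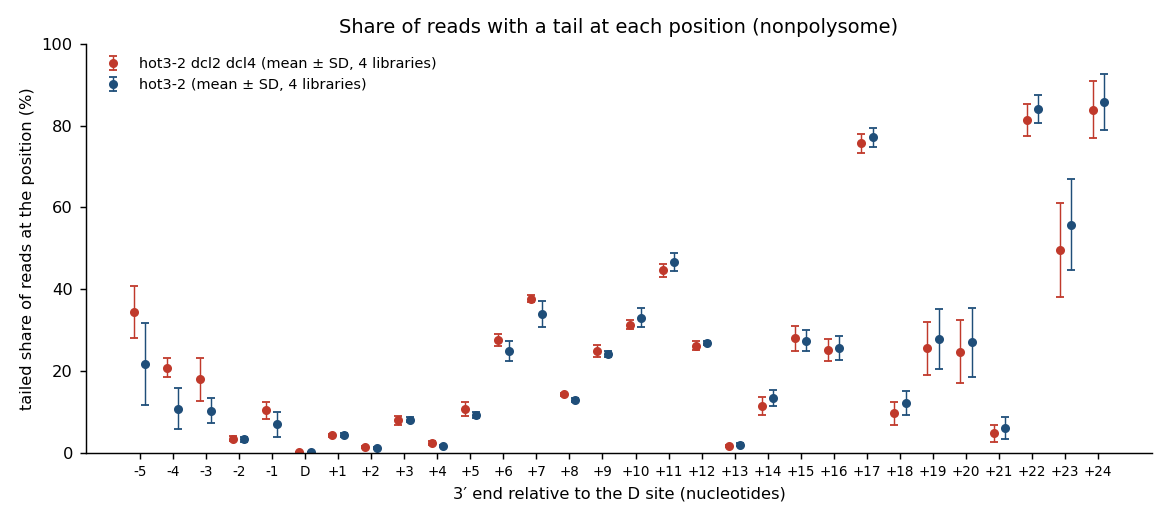
Share of reads with a tail at each position, mean ± SD of the 4 libraries per genotype. The share is highest at +17, +22 and +24 in both genotypes and differs without overlap at -4 and +8.

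The share of reads that carried a tail depended on position far more than on genotype. It was 81.4 ± 3.93% at +22 and 75.7 ± 2.37% at +17 in hot3-2 dcl2 dcl4, against 84.1 ± 3.35 and 77.2 ± 2.35% in hot3-2. At +21 and +13, the neighbours of +22 and +12, it was 4.72 ± 2.14 and 1.63 ± 0.269% in hot3-2 dcl2 dcl4, against 6.02 ± 2.65 and 1.94 ± 0.327% in hot3-2. The share at +20 was 24.7 ± 7.65% in hot3-2 dcl2 dcl4 and 27.1 ± 8.45% in hot3-2, and at +2 it was 1.35 ± 0.204 and 1.23 ± 0.258%. In the template +13, +20 and +21 are each followed by an adenosine and +2 is not. By the counting of added adenosines as template, a tail that starts with adenosine is not recorded at +13, +20 or +21. How far this shaped the shares was not tested. The groups did not overlap at 2 of 30 positions, both higher in hot3-2 dcl2 dcl4 (6.67%). These were +8, with 14.3 ± 0.373% against 12.9 ± 0.534% in hot3-2, and -4, with 20.8 ± 2.41% against 10.8 ± 5.10% in hot3-2. At -4 the lower share in hot3-2 came with more untailed -4 ends in its replicates 1 and 3. Mean tail length was higher without overlap at 1 of 30 positions (3.33%), -2, with 2.03 ± 0.00956 nt in hot3-2 dcl2 dcl4 and 2.00 ± 0.0139 nt in hot3-2. It was lower without overlap at 1 of 30 (3.33%), +1, with 4.31 ± 0.310 nt in hot3-2 dcl2 dcl4 and 5.21 ± 0.256 nt in hot3-2, where the 10-nt class took 29.1 ± 4.93 and 39.8 ± 2.96% of tailed reads. These shares were compared by overlap alone, with no test.

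The same DCL alleles in a background with intact HOT3 gave a difference of the same direction at +21 from a much lower level. Untailed +21 ends were 0.298, 0.264, 0.283 and 0.231% of D in dcl2 dcl4 nonpolysome libraries, against 0.202, 0.113, 0.208 and 0.107% of D in WT. The groups did not overlap (log2 difference 0.77 ± 0.23, edgeR adjusted p = 0.888). Here the ratio between genotypes was larger in replicates 2 and 4, with means of 0.247% of D in dcl2 dcl4 and 0.110% of D in WT, than in replicates 1 and 3, with 0.290 and 0.205% of D, the opposite of the hot3-2 pair. The A1 to A2 ratio was 3.73 ± 0.334 in dcl2 dcl4 and 5.22 ± 0.470 in WT, close to the 3.69 and 4.73 of the hot3-2 pair. At +21, the difference between the 2 contrasts was -0.14 on the log2 scale (95% interval -0.78 to 0.49, adjusted p = 0.999). Over all rows that interaction called 0 of 271 (0%), with 14 at an unadjusted p under 0.05.

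The ends at -5 and -4 had the same direction there, at a smaller size, and those at -1 did not. Untailed -5 ends were 0.00827, 0.00909, 0.0101 and 0.00934% of D in dcl2 dcl4, against 0.0108, 0.0109, 0.0107 and 0.0117% of D in WT, without overlap and with a log2 difference of -0.27 (adjusted p = 0.979). Untailed -4 ends were also lower without overlap, at 0.0381 ± 0.00397% of D in dcl2 dcl4 and 0.0495 ± 0.00633% of D in WT. At -3, -2 and -1 the dcl2 dcl4 and WT libraries overlapped. Untailed -1 ends averaged 1.84% of D in dcl2 dcl4 and 1.80% of D in WT (log2 difference 0.03). Tails of 2 and 3 nt at -1 had log2 differences of 0.01 and 0.11 between these genotypes (edgeR adjusted p = 0.979 each). At -5, replicates 1 and 3 did not stand above 2 and 4 in dcl2 dcl4 or WT (ratios of 0.995 and 0.951). The interaction at -5 was -1.67 on the log2 scale (95% interval -2.80 to -0.54, adjusted p = 0.468), so the difference between the contrasts was not called. At A1, by contrast, replicates 1 and 3 were above replicates 2 and 4 in all 4 genotypes, by 1.27-fold to 1.65-fold.

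In the unfractionated extract of the same genotypes the differences of the untailed ends at +21 and -5 were smaller. Untailed +21 ends averaged 0.732 ± 0.0638% of D in hot3-2 dcl2 dcl4 and 0.638 ± 0.0562% of D in hot3-2 (log2 difference 0.20), and untailed -5 ends 0.00128 ± 0.000254 and 0.00173 ± 0.000148% of D (log2 difference -0.43), with overlap in both. For the untailed shortened ends as a class the sign was the opposite there. They were 4.92 ± 0.411% of D in hot3-2 dcl2 dcl4 total extract and 4.56 ± 0.353% of D in hot3-2 (log2 difference 0.11). Untailed ends at -3, -2 and -1 had log2 differences of 0.06, 0.10 and 0.19, all with overlap. Among tailed rows of the total extract, the 10-nt class at -5 had a log2 difference of -1.42 (edgeR adjusted p = 0.0842). Tails of 2, 5, 6 and 7 nt at -5 had -0.35, -0.02, -0.60 and 0.07 (adjusted p = 0.995 each). At -1, tails of 1, 2, 3 and 4 nt had 0.06, 0.74, 0.81 and 1.26 (adjusted p = 0.995, 0.424, 0.516 and 0.424). The nonpolysome difference exceeded that of the total extract by 0.43 at untailed +21 (95% interval 0.01 to 0.84, adjusted p = 1.00). The interaction called 0 of 273 rows (0%), with 10 at an unadjusted p under 0.05. This fit took the libraries as independent. Total extract is the lysate before fractionation, and the labels do not say whether same-numbered libraries share a lysate. In polysomes, -5 and -4 ends were lower in hot3-2 dcl2 dcl4 without overlap, at 0.00417 ± 0.000940 and 0.0116 ± 0.00241% of D, against 0.0107 ± 0.00429 and 0.0269 ± 0.0114% of D in hot3-2. As in nonpolysomes, replicates 1 and 3 of hot3-2 were the high pair at -5, with 0.0148 and 0.0140% of D, against 0.00685 and 0.00718% of D in its replicates 2 and 4. At +21 the polysome libraries overlapped, with 0.174 ± 0.0555% of D in hot3-2 dcl2 dcl4 and 0.142 ± 0.0558% of D in hot3-2. For each replicate number, untailed +21 ends were nevertheless higher in hot3-2 dcl2 dcl4 than in hot3-2, in polysomes and in total extract alike. The polysome values were not tested.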

How the data were processed

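Counts of 18S rRNA 3′ ends were used as deposited: the authors trimmed 18S-ENDseq reads with cutadapt 4.2 and mapped them with STAR 2.7.10b, per the submitters' processing notes, to their own 45S rDNA reference, kept molecules with the mature 18S 5′ end, and counted reads by 3′ end (positions 1886 to 1915, D at 1891) and untemplated tail length (0 to 10 nt). Whether the 10-nt class holds longer tails is not given in the sources used here. RNA was circularised, reverse-transcribed and amplified without molecular identifiers, so intervals cover counting error only.

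Rows were scaled to the untailed D count, used as library size in edgeR 4.0.16 (R 4.3.3, limma 3.58.1). Rows with at least 10 reads in at least 4 libraries were tested with the quasi-likelihood F-test, p-values were adjusted over all rows tested, and an adjusted p under 0.05 was called. Interactions used 16 libraries each. Standard errors were the log2 difference over the square root of F. The 15 end classes, 10 tail lengths and 6 summary measures were tested by two-sided exact permutation over 70 arrangements with Benjamini-Hochberg adjustment within each family; ± is SD over 4 libraries. Replicates differed by 50.7 to 320 times the chi-square per degree of freedom that counting allows over 12 pairs, so all 8 were kept. Replicate numbers came from the labels; they were taken to pair samples because every same-numbered pair correlated above 0.1 in its deviations over the tested rows. Over the 29 untailed rows alone those correlations were -0.15, 0.35, 0.29 and 0.03. Alternatives were other library sizes, TMM, DESeq2 1.42.0, other filters, the block, the replicate sets and each library left out; the blocked fit without each number was added after seeing the data. Rows named were the untailed rows at -5 to -1, A1 and A2, the 5 most frequent tailed rows, and the 5 rows with the smallest p in each direction; others, such as those called with the block, were named after their values were seen. The comparison, classes and rows were chosen with earlier results of these data known. The edgeR step was tested on simulated counts, drawn independently for each library and fitted without a block. That test does not cover the blocked fit or the fits within replicate sets.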

Additional observations from a re-analysis of the deposited data

Results flagged for a closer look

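Of 88 groups of 4 libraries examined for a library far from the others, 1 stood out: the untailed A1 to A2 ratio of hot3-2 dcl2 dcl4 replicate 4 was 4.05, against 3.55 to 3.63 in the other 3 libraries of its genotype. About 1 in 20 such groups is picked out by chance. The value lay below the lowest hot3-2 ratio, 4.18.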

How the results depend on the processing

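The count of called rows stayed at 0 with all counted reads as library size, with TMM, without a filter, with at least 100 reads in all libraries (131 rows), with replicates 1 and 3 against 2 and 4 as a factor, in replicates 2 and 4 alone, in each of the 8 fits without 1 library, and in the blocked fits without 1 replicate number. It was 7 with DESeq2, 27 with the replicate block and 5 in replicates 1 and 3 alone. Both interactions called 0 rows with all reads as library size, with the replicate block and without a filter, the alternatives run for them. No class, tail length or summary measure passed adjustment in any setting tested, which says little: with the replicate block (smallest possible p 0.125) none could, without it a measure alone at the smallest exact p could not, and the replicate sets were not tested. The log2 difference of the A1 to A2 ratio moved to -0.54 in replicates 1 and 3 and to -0.17 in replicates 2 and 4. Tail lengths of 6, 9 and 10 nt turned sign with all reads as denominator, at 0.011, 0.014 and 0.012. Between replicates 1 and 3 and replicates 2 and 4, sign differed for untailed +1 to +2 (0.19 and -0.15), +3 to +7 (-0.12 and 0.02) and +14 to +20 (0.18 and -0.02). It differed too for tailed +1 to +2 (0.15 and -0.02), A1 (0.08 and -0.03), A2 (0.05 and -0.23), +23 to +24 (0.13 and -0.13) and +1 to +22 (0.05 and -0.13). The same held for mean tail length (0.009 and -0.025) and for most tail lengths. Near 0, the sign also turned in replicates 2 and 4 for untailed -2 (0.011), untailed +12 (-0.029), and 2-nt and 1-nt tails at +12 (-0.061 and -0.052); in replicates 1 and 3 for +22 with 1 and 3 nt (0.044 and 0.015); and for +12 with 1 nt with the block (-0.0019) and with the replicate sets as a factor (-0.0029). With the block and 1 replicate number left out, a choice made after seeing the data, it turned for +12 with 2 nt (-0.011 without number 3), +22 with 1 nt (0.013 without 4) and +12 with 1 nt (-0.019 and -0.017 without 1 and 3). Without 1 library the log2 difference ranged from -0.022 to 0.22 for untailed +10, -0.053 to 0.20 for +11, -0.011 to 0.18 for +12, -0.086 to 0.14 and -0.10 to 0.11 for +12 with 2 and 1 nt, and -0.31 to 0.16, -0.44 to 0.12 and -0.45 to 0.14 for +22 with 1, 2 and 3 nt; the cause was not tested. The block changed no call other than those given with the results. Depth limits the tailed rows on shortened ends most, where single libraries held as few as 2 reads.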
